A study of Mus musculus with 5 samples.

Results

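Transcript levels were compared for 36 genes of glucose uptake, glycolysis, pyruvate and lactate handling and the pentose phosphate branch, out of 21289 genes in the count table of an RNA sequencing study of cardiac macrophages. The 36 genes were taken by symbol from a list of pathway members, by a rule that uses no measured value. The list itself was chosen with earlier results of these data known. All hearts were taken 7 days after myocardial infarction from wild-type male mice of the C57BL/6JGpt strain, and CD45+CD64+ cells were sorted from them. Curcumol, a sesquiterpene from Curcuma plants, was given by daily gavage at 30 mg/kg for 7 days to the mice behind 3 samples. In 2 samples the mice had the same infarction and no curcumol, and these are called untreated here. No uninjured heart is analysed here, so every value is from infarcted tissue. The gate combines CD45, found on leukocytes, with CD64, an Fc receptor carried by monocytes and macrophages. Nothing in the labels tells if replicates are separate animals or pools, so the p-values cover the spread among these 5 samples, which may be technical.

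Glycolysis splits glucose into pyruvate in the cytosol. Glucose enters through carriers of the Slc2a family, is trapped by hexokinases, committed by phosphofructokinase, cleaved by aldolase and carried through the triose steps to pyruvate kinase. Pyruvate then becomes lactate, which leaves through Slc16a carriers, or enters mitochondria through pyruvate dehydrogenase, which the Pdk kinases inhibit. The pentose phosphate branch leaves at glucose 6-phosphate, yields NADPH and ribose in its oxidative arm and returns carbon to glycolysis in its non-oxidative arm. Inflammatory activation of macrophages is known to raise glycolysis and lactate output, and NADPH feeds their oxidative burst.

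The libraries held 39768705 to 41117439 counts with curcumol and 41663017 and 43315822 without. The untreated libraries covered fewer genes, with a count for 17078 to 18501 genes with curcumol and for 12243 and 12915 without. The untreated libraries also differed from each other, with Pearson's r of log2 CPM across genes of 0.925 between them and 0.976 to 0.980 between curcumol libraries. Of the genes with at least 100 counts in an untreated library, 340 and 410 had no count in the other one, where curcumol libraries compared in the same way gave 0 or 1 gene. A count of 0 in an untreated library therefore does not bound a gene's level there. Of 12 markers of macrophages and of the gate, including Ptprc (CD45) and Fcgr1 (CD64), all had counts in every library, and their summed level was 42467 to 48961 CPM with curcumol and 49012 and 49635 CPM without. Of these 12 markers, 5 were higher and 4 lower in every curcumol library, and 0 passed the adjusted threshold in edgeR. Cd14 averaged 0.413 times and Cd68 0.567 times its untreated mean with curcumol, and Itgam 2.55 times and Mertk 2.57 times. CPM, the depth-scaled count, uses library totals multiplied by TMM factors, which align libraries on the bulk of their genes. Summed levels of neutrophil, cardiomyocyte, fibroblast, endothelial and B cell markers were higher in every curcumol library. Those of 3 other lists overlapped between the groups. The T and NK sum was 60.8 to 117 CPM with curcumol and 44.5 and 61.3 CPM without. For dendritic markers it was 36.8 to 69.9 CPM with curcumol and 41.3 and 43.7 CPM without. Erythroid and platelet markers summed to 909 to 1209 CPM with curcumol and 1062 and 1143 CPM without. Most of that sum was Pf4, at 862 to 1155 CPM with curcumol and 993 and 1004 CPM without. In that list 3 markers (Hba-a1, Hba-a2 and Hbb-bs) were lower and 2 (Alas2 and Gp1bb) higher in every curcumol library. Hba-a1 averaged 9.63 CPM with curcumol and 30.6 CPM without. The summed level of 12 neutrophil markers was 3640, 1615 and 3154 CPM with curcumol and 397 and 429 CPM without, with 10 of 12 higher in every curcumol library and Camp at 0 in both untreated libraries. The sum of 12 cardiomyocyte markers was 118 to 135 CPM with curcumol and 29.0 and 66.2 CPM without, with 10 of 12 higher in every curcumol library and Ttn and Ryr2 at 0 in both untreated libraries. The sum of 10 fibroblast markers was 136 to 363 CPM with curcumol and 30.5 and 37.6 CPM without, with 7 of 10 higher in every curcumol library and Lum, Pdgfra and Mfap5 at 0 in both untreated libraries. For 10 endothelial markers the sum was 63.1 to 110 CPM with curcumol and 28.6 and 33.5 CPM without, with 9 of 10 higher in every curcumol library and 5 at 0 in both untreated libraries. The part of these cells in the values of the 36 genes was not tested. Beside the marker counts above, 29.5% of all tested genes were higher and 14.9% lower in every curcumol library. Among tested genes with an average log2 CPM of at least 5 these shares were 15.5% and 27.3%. In a bulk sample, fewer cells of a type and less RNA per cell cannot be told apart.

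Most of the glycolytic enzymes below the hexokinases stood at a lower transcript level in curcumol samples than in untreated samples, though no single gene passed edgeR's adjusted threshold, and the hexokinases and most pentose phosphate enzymes overlapped between the groups. Of the 36 genes, all of which passed the filter on low counts, 26 had a negative and 10 a positive log2 fold change. The median log2 fold change of the 36 genes was -0.36, against 0.15 over all 14508 tested genes and -0.099 over the 4398 tested genes with an average log2 CPM of at least 5. With edgeR's quasi-likelihood test, 0 of the 36 genes had an adjusted p under 0.05, beside 0.207% of all tested genes (0.0689% higher and 0.138% lower) and 0.477% of the abundant ones (0.0682% higher and 0.409% lower). The adjusted p-values began at 0.0637, the value of Aldoa. At an unadjusted p under 0.05 there were 11 lower genes, beside 6.51% of all tested genes and 14.8% of the abundant ones, and 2 higher genes, beside 18.1% and 9.19%. The curcumol libraries were all below both untreated libraries for 16 of the 36 genes, where 14.9% of all tested genes and 27.3% of those with an average log2 CPM of at least 5 behaved so. They were all above for 4 genes, beside 29.5% and 15.5%. Among the 27 of the 36 genes above that level of abundance, 14 lay apart downward and 1 upward.

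**Figure D1:**
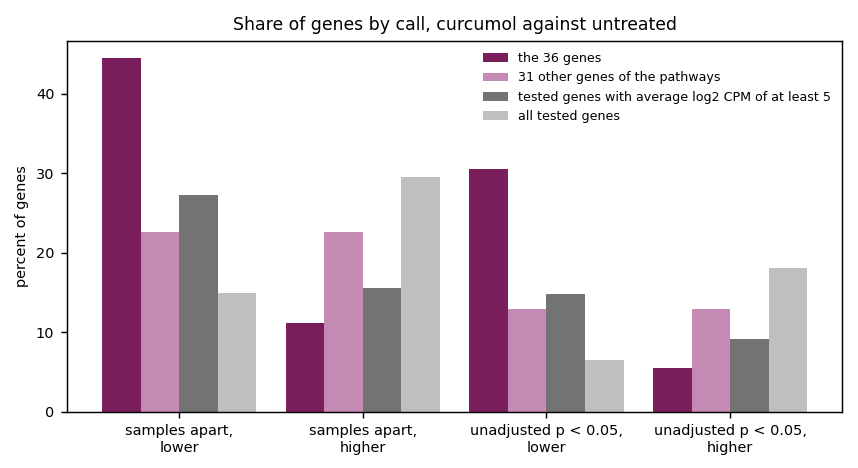
Bars give the percent of genes (vertical axis) whose samples lay apart or whose unadjusted p was under 0.05, by direction in curcumol relative to untreated samples, for the 36 genes, for 31 other tested genes of the same pathways and for both backgrounds. Lower calls are 16 and 11 of the 36 genes, and higher calls 4 and 2.

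The calls depended on the tool. DESeq2 called 9 of the 36 lower with curcumol (Slc2a1, Aldoa, Tpi1, Gapdh, Pgk1, Pgam1, Eno1, Pkm and Ldha) and 1 higher (Pfkfb4), beside 4.74% of all tested genes lower and 11.8% higher. Limma-voom called 6 lower (Aldoa, Tpi1, Pgk1, Pgam1, Eno1 and Pkm) and 1 higher (Rpia), beside 1.73% of all tested genes lower and 9.72% higher, and limma-voom with library weights called 0. Without untreated replicate 1, edgeR called 2 of the 36 lower (Aldoa and Slc2a1) and 2 higher (Slc2a3 and Pfkfb4), beside 3.96% of all tested genes lower and 14.8% higher. Without untreated replicate 2 it called 8 lower and 1 higher (Slc2a3), beside 4.44% lower and 18.1% higher. In those fits the single untreated library left is assumed to vary like the curcumol libraries. Scaling by total counts moved the median of all tested genes to 0.34 and that of the 36 genes to -0.17. A change of scaling shifts all genes nearly alike. The 36 genes therefore lay 0.51 below the median of all genes on the log2 scale with either scaling, by construction. Over all the fits, the median of the 36 genes minus that of all tested genes ran from -0.90 to -0.42.

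**Figure D2:**
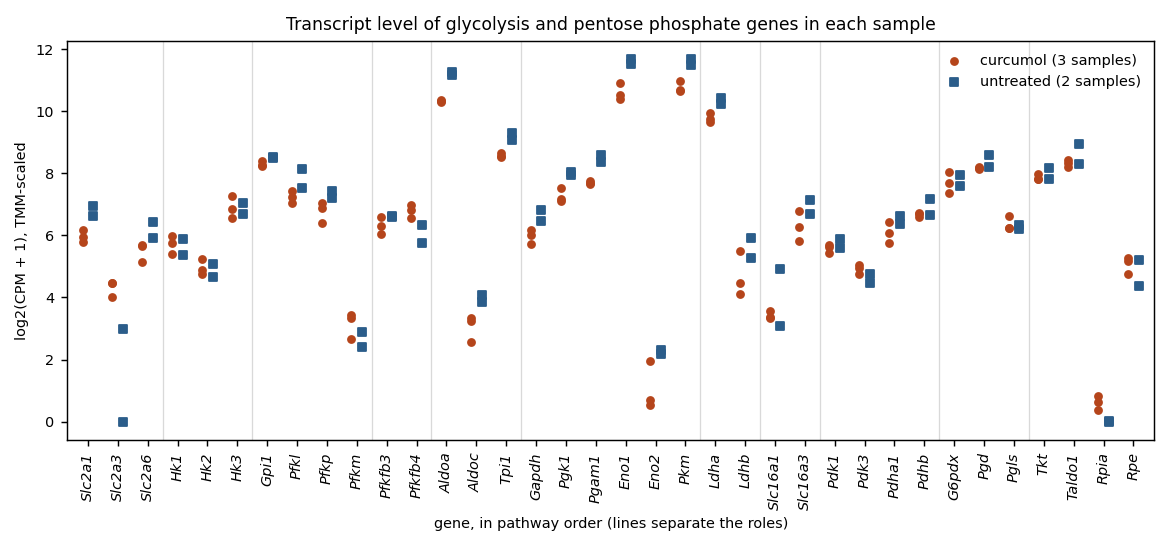
Each point is 1 sample's transcript level as log2(CPM + 1) (vertical axis) for the 36 genes in pathway order (horizontal axis), with curcumol samples left of untreated samples. From Aldoa to Pkm the curcumol samples lie below both untreated samples for each gene.

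The 9 listed genes from aldolase to pyruvate kinase shared a pattern, with a median log2 fold change of -0.81. All curcumol libraries were below both untreated libraries for all 9. This stretch was not named in the plan of the comparisons. Of other tested genes at the later steps, Pgam2 (log2 fold change 1.05) and Eno3 (0.40) had positive values and Bpgm (-0.48) a negative one. Each of these overlapped between the groups. Aldoa, the main aldolase of most tissues, which cleaves fructose 1,6-bisphosphate, stood at 1283, 1253 and 1303 CPM in curcumol samples and at 2471 and 2281 CPM in untreated samples. Its curcumol values lay within a narrow band far below both untreated values. The untreated mean was 1.86-fold the curcumol mean (log2 fold change -0.89 ± 0.14 SE, 95% interval -1.24 to -0.55, adjusted p = 0.0637, edgeR's quasi-likelihood test). Tpi1, the triose phosphate isomerase, stood at 397, 375 and 368 CPM with curcumol and at 632 and 540 CPM without (-0.62 ± 0.15, adjusted p = 0.0730, edgeR). Aldoc, the brain-type aldolase, was far less abundant, at 8.55, 4.90 and 9.09 CPM with curcumol and at 16.0 and 13.6 CPM without (-0.98 ± 0.43, adjusted p = 0.227, edgeR).

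The later triose steps, where ATP is made, continued the same way. Gapdh, which oxidises glyceraldehyde 3-phosphate, stood at 70.9, 63.4 and 52.3 CPM in curcumol samples and at 113 and 87.9 CPM in untreated samples (log2 fold change -0.69 ± 0.21, adjusted p = 0.0976, edgeR). Per kilobase of exon its level was 41.6 CPM with curcumol and 67.0 CPM without, below that of its neighbours Tpi1 (215 CPM with curcumol and 332 CPM without) and Pgk1 (84.5 CPM with curcumol and 139 CPM without). In GENCODE M21 the Gapdh transcript had near copies in 154 other genes, 146 of them annotated pseudogenes, where each of the other 35 genes had 0 to 9. Reads that fit several places can be split or lost in gene counts, and the part of this in the level of Gapdh was not tested. Pgk1, the phosphoglycerate kinase that makes the first ATP, stood at 183, 145 and 135 CPM with curcumol and at 248 and 261 CPM without (-0.72 ± 0.18, adjusted p = 0.0756, edgeR). The mutase Pgam1 stood at 202, 214 and 203 CPM with curcumol and at 384 and 330 CPM without (-0.79 ± 0.15, adjusted p = 0.0651, edgeR). For both genes the gap between the groups exceeded the range within each group.

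The enolase Eno1 and the pyruvate kinase Pkm were the most abundant of the 36 transcripts per kilobase in both groups. Eno1 stood at 1936, 1456 and 1338 CPM in curcumol samples and at 3271 and 2939 CPM in untreated samples (log2 fold change -0.98 ± 0.20, 95% interval -1.47 to -0.49, adjusted p = 0.0659, edgeR). The untreated mean was 1.97-fold the curcumol mean. Pkm, which makes the last ATP of the pathway, stood at 1989, 1606 and 1630 CPM with curcumol and at 3286 and 2836 CPM without (-0.81 ± 0.17, adjusted p = 0.0661, edgeR). For Eno1 and Pkm, curcumol replicate 1 was the highest of its group and still below both untreated samples. The table does not separate the PKM1 and PKM2 splice forms. Eno2, the neuronal enolase, was scarce, at 0.621, 0.454 and 2.91 CPM with curcumol and at 3.95 and 3.53 CPM without (-1.49 ± 1.02, adjusted p = 0.441, edgeR).

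In each of the 13 alternative fits all 9 genes kept a negative log2 fold change, a direction that groups without overlap largely fix in advance. Their median was -0.63 with total counts, which moved the median of all tested genes as given above, and -0.75 to -0.89 when single libraries were left out. Summed over Aldoa, Aldoc and Tpi1 the level was 1634 to 1689 CPM with curcumol and 2834 and 3119 CPM without. Summed over the 6 genes from Gapdh to Pkm it was 3361 to 4382 CPM with curcumol and 6457 and 7305 CPM without.

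Promoter sequence is shown for Aldoa, Pgam1 and Eno1, the 3 lower genes with the smallest p, for Tpi1 as a lower gene whose window holds no match, for Ldha, the lactate-forming step, and for Pfkfb4 and Pdk3, which stood higher in every curcumol sample. Each window holds 300 bases around a RefSeq gene start of GRCm38.p6, 5′ to 3′ on the gene's strand. Where a gene has several windows, 1 is shown. Capitals mark ACGTG and GCGTG and their reverse complements CACGT and CACGC, the core letters that hypoxia-inducible factors are known to bind, and in CACGTG, the E-box of Myc-type factors, ACGTG overlaps its own reverse complement.
Aldoa, chr7:126799129-126799428, minus strand: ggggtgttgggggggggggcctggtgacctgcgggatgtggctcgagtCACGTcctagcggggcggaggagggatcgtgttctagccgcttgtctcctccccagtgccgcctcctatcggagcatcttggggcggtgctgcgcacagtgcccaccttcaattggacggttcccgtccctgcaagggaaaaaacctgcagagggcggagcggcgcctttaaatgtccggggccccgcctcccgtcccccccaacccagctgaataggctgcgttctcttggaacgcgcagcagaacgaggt
Pgam1, chr19:41911621-41911920, plus strand: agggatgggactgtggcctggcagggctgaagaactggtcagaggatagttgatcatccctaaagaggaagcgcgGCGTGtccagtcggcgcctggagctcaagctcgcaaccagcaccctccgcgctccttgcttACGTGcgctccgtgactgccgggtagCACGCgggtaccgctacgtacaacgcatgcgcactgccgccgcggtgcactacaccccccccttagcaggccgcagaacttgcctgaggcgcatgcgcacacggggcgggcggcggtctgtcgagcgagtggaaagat
Eno1, chr4:150236947-150237246, plus strand: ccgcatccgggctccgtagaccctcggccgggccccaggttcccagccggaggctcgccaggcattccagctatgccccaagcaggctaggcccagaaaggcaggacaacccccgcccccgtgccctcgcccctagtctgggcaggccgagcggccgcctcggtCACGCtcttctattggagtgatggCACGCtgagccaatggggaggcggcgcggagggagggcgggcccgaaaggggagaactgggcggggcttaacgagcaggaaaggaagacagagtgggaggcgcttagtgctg
Tpi1, chr6:124814109-124814408, minus strand: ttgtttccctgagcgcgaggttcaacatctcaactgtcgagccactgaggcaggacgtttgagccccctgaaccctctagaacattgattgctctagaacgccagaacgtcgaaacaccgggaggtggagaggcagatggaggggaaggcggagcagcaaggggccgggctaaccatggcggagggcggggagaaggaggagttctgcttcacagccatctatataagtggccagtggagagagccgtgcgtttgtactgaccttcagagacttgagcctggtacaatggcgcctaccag
Ldha, chr7:46845554-46845853, plus strand: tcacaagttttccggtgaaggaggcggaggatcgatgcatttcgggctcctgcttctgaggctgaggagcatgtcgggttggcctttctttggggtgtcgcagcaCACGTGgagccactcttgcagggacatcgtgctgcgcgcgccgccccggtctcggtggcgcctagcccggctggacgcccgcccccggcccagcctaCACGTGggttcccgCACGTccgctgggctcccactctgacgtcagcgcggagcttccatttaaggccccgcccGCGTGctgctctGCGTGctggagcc
Pfkfb4, chr9:108991652-108991951, plus strand: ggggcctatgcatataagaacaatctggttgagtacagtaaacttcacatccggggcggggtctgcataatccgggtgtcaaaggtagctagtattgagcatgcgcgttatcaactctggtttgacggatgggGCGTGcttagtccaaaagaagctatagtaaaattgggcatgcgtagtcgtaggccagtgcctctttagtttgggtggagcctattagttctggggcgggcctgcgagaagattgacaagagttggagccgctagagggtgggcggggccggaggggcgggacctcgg
Pdk3, chrX:93832101-93832400, minus strand: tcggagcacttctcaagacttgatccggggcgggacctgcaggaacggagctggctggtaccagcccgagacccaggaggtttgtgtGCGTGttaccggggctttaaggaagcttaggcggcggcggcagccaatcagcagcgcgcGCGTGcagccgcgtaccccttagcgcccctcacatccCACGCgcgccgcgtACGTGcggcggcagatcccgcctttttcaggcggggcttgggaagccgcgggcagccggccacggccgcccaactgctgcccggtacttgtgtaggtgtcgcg
A promoter was found in RefSeq for 35 of the 36 genes. Of these, 18 genes (51.4%) held ACGTG in at least 1 window on either strand, against 28.6% of 11437 tested genes with a window and 32.1% of the 3585 with an average log2 CPM of at least 5. GCGTG stood in 25 genes (71.4%), against 52.4% and 56.8%. CACGTG stood in 4 genes (11.4%), against 11.4% and 13.3%. These are counts of letters, which say nothing of whether a factor was bound. Among genes with lower levels in every curcumol sample, the Ldha window shown held 5 ACGTG matches and 2 GCGTG matches. Each of the 2 CACGTG in that window counts as 2 of these ACGTG matches, 1 per strand. The other Ldha window held 0 ACGTG and 2 GCGTG, and the windows of Tpi1, Eno2 and Gpi1 held 0 of either. Among those with higher levels, Pdk3 held 1 ACGTG and 3 GCGTG and Pfkfb4 and Rpia each held 0 ACGTG and 1 GCGTG.

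**Figure D3:**
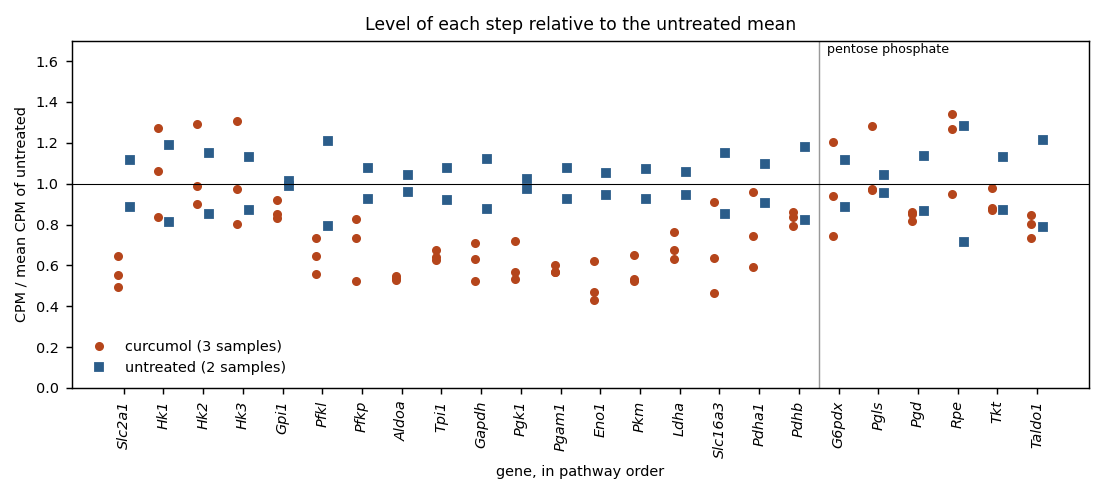
Points give each sample's CPM divided by the untreated mean of that gene (vertical axis) for 24 genes along glycolysis and, right of the line, the pentose phosphate branch. Curcumol samples lie below both untreated samples for Slc2a1 and from Gpi1 to Ldha, whereas the hexokinases and most pentose phosphate genes overlap.

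Upstream of aldolase the pattern was mixed. The 3 hexokinases, which phosphorylate glucose, overlapped between the groups. Hk3, the form typical of myeloid cells, stood at 153, 114 and 93.6 CPM in curcumol samples and at 102 and 132 CPM in untreated samples (log2 fold change 0.040 ± 0.25, 95% interval -0.56 to 0.64, adjusted p = 0.950, edgeR). The housekeeping form Hk1 stood at 52.4, 62.7 and 41.3 CPM with curcumol and at 58.5 and 40.0 CPM without, and the inducible form Hk2 at 25.8, 37.1 and 28.2 CPM with curcumol and at 24.3 and 32.9 CPM without (adjusted p = 0.898 and 0.899, edgeR). The interval of Hk1 ran from -0.56 to 0.73 and that of Hk2 from -0.58 to 0.74. Both overlapped the interval of Tpi1, -0.99 to -0.26, and a difference between these genes was not tested. Each hexokinase changed sign when single libraries were left out. Neutrophils express Hk3 too, and 10 of the 12 neutrophil markers given above were higher in every curcumol library. This stands beside 29.5% of all tested genes and 15.5% of the abundant ones. The part of neutrophils in the Hk3 values was not tested.

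The glucose phosphate isomerase Gpi1 stood at 336, 303 and 310 CPM with curcumol and at 370 and 360 CPM without (log2 fold change -0.21 ± 0.14, adjusted p = 0.439, edgeR), so the groups lay apart by a small margin. Phosphofructokinase, the committing step, has 3 subunits. The liver-type subunit Pfkl stood at 170, 151 and 130 CPM with curcumol and at 281 and 184 CPM without (-0.63 ± 0.23, adjusted p = 0.151, edgeR). The platelet-type subunit Pfkp stood at 132, 116 and 83.4 CPM with curcumol and at 147 and 171 CPM without (-0.53 ± 0.23, adjusted p = 0.216, edgeR). Both were lower in every curcumol sample, though curcumol replicate 1 came close to the nearest untreated sample. The muscle-type subunit Pfkm was rare and overlapped, at 5.30, 9.13 and 9.86 CPM with curcumol and at 6.46 and 4.32 CPM without (0.59 ± 0.55, adjusted p = 0.590, edgeR). The summed level of the cardiomyocyte markers, also higher with curcumol, is given above, and the part of cardiomyocytes in the Pfkm values was not tested.

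The bifunctional enzymes that set fructose 2,6-bisphosphate, the strongest activator of phosphofructokinase, differed from each other. Pfkfb4 stood at 125, 112 and 92.5 CPM in curcumol samples and at 79.1 and 53.5 CPM in untreated samples, with all curcumol values above both untreated ones (log2 fold change 0.73 ± 0.24, 95% interval 0.15 to 1.30, adjusted p = 0.120, edgeR). Pfkfb3, the form with strong kinase activity that is induced in activated macrophages, stood at 65.6, 78.3 and 95.3 CPM with curcumol and at 95.1 and 97.9 CPM without, where curcumol replicate 3 reached the untreated level (-0.28 ± 0.20, adjusted p = 0.470, edgeR). The log2 ratio of Pfkfb3 to Pfkfb4 within a library was -0.93, -0.52 and 0.04 with curcumol and 0.27 and 0.87 without. The ratio was thus lower in every curcumol sample, by 1.04 on the log2 scale (exact two-sided permutation test, p = 0.2, adjusted p = 0.9 over 9 pairs). This test doubles the smaller tail, so 0.2 is the smallest p it can give for 3 against 2 samples.

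**Figure D4:**
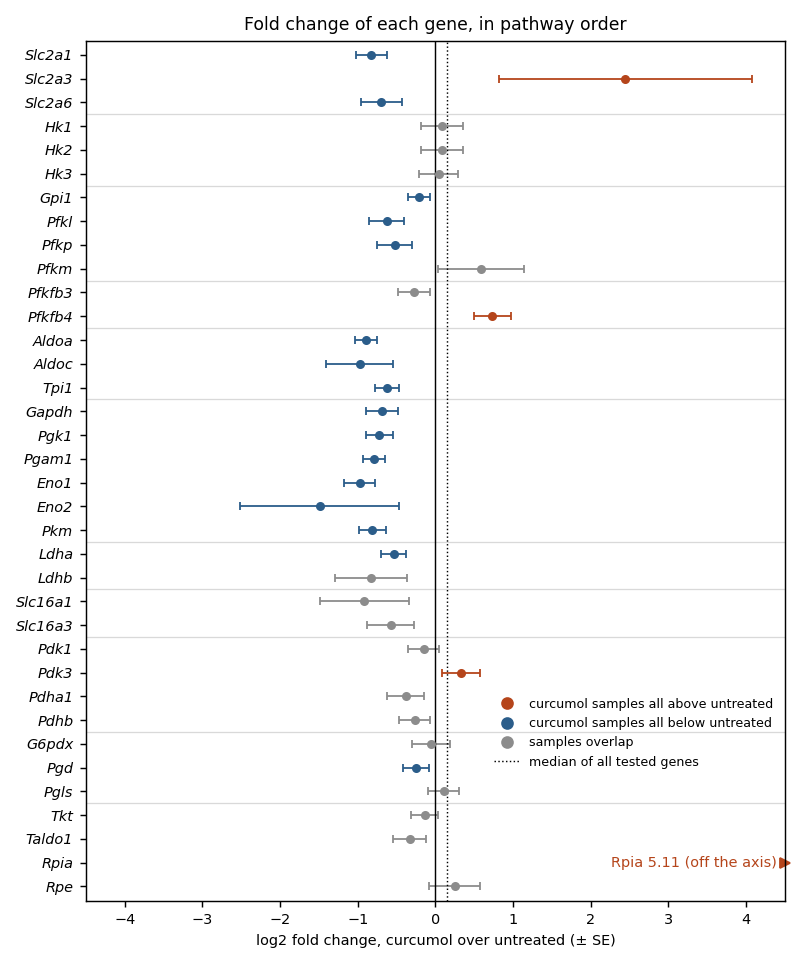
Points give the log2 fold change of curcumol over untreated samples (horizontal axis, bars are SE) of the 36 genes in pathway order from top to bottom, coloured by whether the samples of the groups lay apart. Rpia, at 5.11, lies off the axis, and the points from Aldoa to Ldhb are all left of 0.

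The glucose carriers did not move alike. Slc2a1, the carrier GLUT1, stood at 70.9, 60.4 and 54.4 CPM in curcumol samples and at 97.2 and 122 CPM in untreated samples (log2 fold change -0.82 ± 0.20, 95% interval -1.30 to -0.35, adjusted p = 0.0720, edgeR). Slc2a6, a lysosomal hexose carrier that inflammatory stimuli induce in macrophages, stood at 50.8, 49.4 and 34.6 CPM with curcumol and at 86.2 and 59.3 CPM without (-0.69 ± 0.26, adjusted p = 0.162, edgeR). For both carriers, every curcumol sample was below both untreated samples. Slc2a3, the high-affinity carrier GLUT3, stood the other way, at 20.9, 21.1 and 15.2 CPM with curcumol and at 6.99 and 0 CPM without (2.45 ± 1.62, adjusted p = 0.423, edgeR). Untreated replicate 2 had no count of it, where untreated replicate 1 had 276 counts, so its 0 is among those that do not bound the level; the limit of 3 counts, 0.0767 CPM, covers counting error only. Its log2 fold change was 1.47 without that library, against 12.64 without untreated replicate 1, where the only untreated library left has no count and the fitted value is no bound. Neutrophils are known to express Slc2a3, and the summed level of the neutrophil markers was higher in the same libraries. The part of neutrophils in the Slc2a3 values was not tested.

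Of the 4 genes of lactate production and export, Ldha separated the groups and the other 3 overlapped. Ldha, the subunit that favours lactate formation, stood at 978, 867 and 811 CPM in curcumol samples and at 1360 and 1212 CPM in untreated samples, with the groups apart (log2 fold change -0.54 ± 0.16, 95% interval -0.92 to -0.15, adjusted p = 0.0960, edgeR). Ldhb, the heart-type subunit, stood at 16.3, 21.2 and 44.1 CPM with curcumol and at 59.5 and 37.3 CPM without (-0.83 ± 0.46, adjusted p = 0.329, edgeR). Curcumol replicate 3, its highest curcumol sample, overlapped the untreated range and also had the highest sum of fibroblast markers. Slc16a3, the lactate exporter MCT4, stood at 110, 76.6 and 55.7 CPM with curcumol and at 138 and 102 CPM without (-0.58 ± 0.31, adjusted p = 0.310, edgeR), and curcumol replicate 1 exceeded the lower untreated sample. Slc16a1, the carrier MCT1, stood at 9.29, 10.8 and 9.02 CPM with curcumol and at 29.2 and 7.52 CPM without (-0.92 ± 0.57, adjusted p = 0.391, edgeR). Its negative value rested on untreated replicate 1, and without that library the log2 fold change was 0.37.

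Of the 4 listed genes at the gate between pyruvate and the mitochondrion, Pdk3 lay apart and the other 3 overlapped. The catalytic subunits of pyruvate dehydrogenase overlapped: Pdha1 stood at 86.0, 66.6 and 53.0 CPM with curcumol and at 80.9 and 97.9 CPM without, and Pdhb at 104, 95.8 and 101 CPM with curcumol and at 99.1 and 142 CPM without (log2 fold changes -0.38 ± 0.24 and -0.27 ± 0.20, adjusted p = 0.395 and 0.476, edgeR). Pdk1, a kinase that shuts pyruvate dehydrogenase and a known hypoxia target, overlapped at 50.3, 48.4 and 41.8 CPM with curcumol and at 46.8 and 57.4 CPM without (-0.15 ± 0.20, adjusted p = 0.710, edgeR). Pdk3, another such kinase, stood at 32.2, 29.7 and 26.0 CPM with curcumol and at 25.9 and 20.9 CPM without (0.33 ± 0.24, adjusted p = 0.485, edgeR). Curcumol replicate 3 and untreated replicate 1 nearly met, so this separation is within 0.1 CPM.

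Of the 7 listed pentose phosphate genes 5 overlapped between the groups, with a median log2 fold change of -0.057 that turned to 0.13 with total counts. Of the 7, 1 lay apart upward (Rpia) and 1 downward (Pgd). These counts stand beside 29.5% upward and 14.9% downward of all tested genes, and 15.5% and 27.3% of the abundant ones. G6pdx, the glucose 6-phosphate dehydrogenase that commits carbon to the branch and makes NADPH, stood at 263, 205 and 162 CPM in curcumol samples and at 244 and 193 CPM in untreated samples (-0.057 ± 0.24, 95% interval -0.63 to 0.52, adjusted p = 0.920, edgeR). The lactonase Pgls stood at 74.1, 74.4 and 98.0 CPM with curcumol and at 73.0 and 79.8 CPM without (0.10 ± 0.19, adjusted p = 0.810, edgeR). The second NADPH-forming enzyme Pgd stood at 294, 290 and 279 CPM with curcumol and at 387 and 295 CPM without (-0.25 ± 0.17, adjusted p = 0.441, edgeR). Its curcumol samples lay below both untreated samples, by less than 1 CPM at the nearest point.

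In the non-oxidative arm, the transketolase Tkt stood at 251, 223 and 225 CPM with curcumol and at 289 and 222 CPM without (log2 fold change -0.14 ± 0.17, adjusted p = 0.707, edgeR). The transaldolase Taldo1 stood at 324, 296 and 342 CPM with curcumol and at 489 and 317 CPM without (-0.33 ± 0.21, adjusted p = 0.412, edgeR). The epimerase Rpe stood at 35.1, 37.2 and 26.3 CPM with curcumol and at 35.5 and 19.8 CPM without (0.25 ± 0.33, adjusted p = 0.719, edgeR). For Tkt, Taldo1 and Rpe the 2 untreated samples differed from each other by more than the group means did. Rpia, the ribose 5-phosphate isomerase, was hardly detected, with 12, 25 and 33 counts in curcumol samples and 0 and 1 count in untreated samples. Scaled for depth this is a ratio of 42.8 with an interval from 7.44 to 1715 that covers counting error only, and edgeR's adjusted p was 0.0992. Whether the genes from aldolase to pyruvate kinase differ in log2 fold change from the pentose phosphate genes was not tested.

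**Figure D5:**
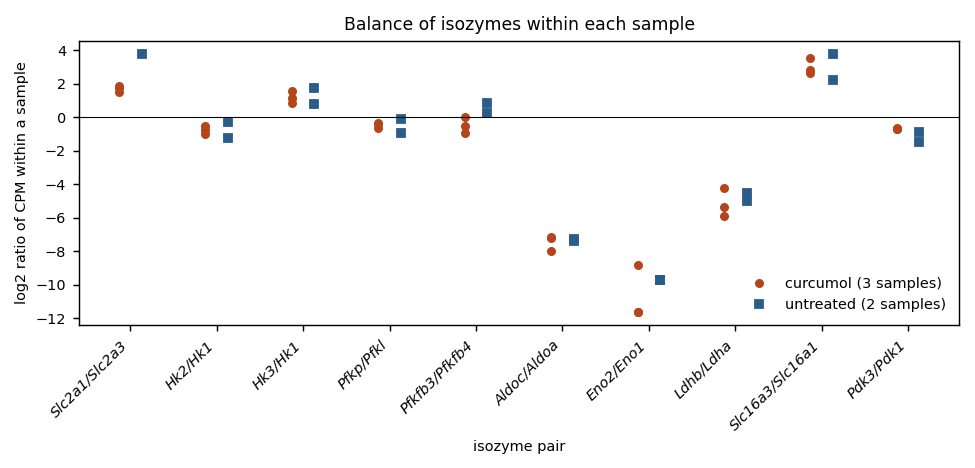
Points give the log2 ratio of the CPM of paired isozymes within each sample (vertical axis), curcumol left of untreated, for 10 pairs. Pfkfb3/Pfkfb4 and Pdk3/Pdk1 lie apart between the groups, and Slc2a1/Slc2a3 has 1 untreated point, above all curcumol points, since untreated replicate 2 has no Slc2a3 count.

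Isozyme makeup is given as shares of CPM per kilobase of exon among the listed members of a family, and most ranges overlapped. Hk3 made up 63.5% to 74.7% of hexokinase transcripts with curcumol and 64.9% and 73.6% without. Pfkl made up 57.2% to 60.5% of phosphofructokinase transcripts with curcumol and 54.4% and 67.4% without. The small share of Pfkm lay apart, at 2.27% to 5.73% with curcumol and 1.59% and 1.93% without. Aldoa exceeded 99% of the Aldoa and Aldoc sum and Eno1 99% of the Eno1 and Eno2 sum in each library. Eno3, an enolase gene outside that sum, averaged 9.62 CPM per kilobase with curcumol and 7.29 without, against 0.475 and 1.34 for Eno2. Ldha made up 92.7% to 97.6% of lactate dehydrogenase transcripts with curcumol and 94.0% and 95.7% without. Slc2a3 made up 10.4% to 11.4% of the transcripts of the 3 glucose carriers with curcumol and 2.46% and 0% without. Pfkfb4 made up 60.6% to 75.1% of the Pfkfb3 and Pfkfb4 sum with curcumol and 46.4% and 56.8% without. The log2 ratio of Pdk3 to Pdk1 was -0.64, -0.71 and -0.68 with curcumol and -0.85 and -1.46 without, a difference of 0.48 (exact two-sided permutation test, p = 0.2, adjusted p = 0.9 over 9 pairs). The other 7 tested pairs overlapped, with adjusted p = 1 by the same exact test.

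Other genes of these pathways went in both directions. Of 45 such genes listed, 42 were in the table and 31 were tested, with a median log2 fold change of 0.070, and 0 passed in edgeR's test. At an unadjusted p under 0.05 there were 4 lower and 4 higher, beside 6.51% and 18.1% of all tested genes, and DESeq2 called 4 lower and 4 higher, beside 4.74% and 11.8%. The libraries lay apart downward for 7 and upward for 7, beside backgrounds of 14.9% and 29.5%. At the pyruvate dehydrogenase gate 10 such genes were tested, of which Pdhx, Dlat and Dld were lower and Pdk2 and Pdp2 higher in every curcumol library. H6pd, the hexose 6-phosphate dehydrogenase of the endoplasmic reticulum, singled out after its values were seen as the only other tested gene of the oxidative pentose phosphate arm, stood at 28.5, 50.7 and 34.4 CPM with curcumol and at 12.7 and 22.2 CPM without (log2 fold change 1.12 ± 0.38, adjusted p = 0.127, edgeR). The 5 with the smallest p went both ways. Pdp2, a phosphatase that reactivates pyruvate dehydrogenase, stood at 3.34, 12.5 and 5.78 CPM with curcumol and had no count in either untreated sample, so no fold is given (adjusted p = 0.0637, edgeR). Pfkfb1, the liver-type bifunctional enzyme, stood at 1.10, 1.54 and 2.30 CPM with curcumol and likewise had no count without (adjusted p = 0.0651, edgeR). Gpd2, the mitochondrial glycerol phosphate dehydrogenase that passes cytosolic electrons to the respiratory chain, stood at 27.4, 25.7 and 20.1 CPM with curcumol and at 5.12 and 8.75 CPM without (log2 fold change 1.82 ± 0.37, adjusted p = 0.0659, edgeR). The aldose mutarotase Galm stood at 20.0, 18.4 and 20.9 CPM with curcumol and at 37.3 and 35.2 CPM without (-0.87 ± 0.22, adjusted p = 0.0764, edgeR). Pdhx, the binding protein of the pyruvate dehydrogenase core, stood at 18.1, 18.9 and 18.9 CPM with curcumol and at 35.6 and 31.3 CPM without (-0.84 ± 0.23, adjusted p = 0.0806, edgeR).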

How the data were processed

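TRIzol extraction of RNA from the sorted cells is given per the labels' protocols. These name a VAHTS Universal V6 library kit, where the series' design text names TruSeq Stranded, so it is unknown if counting used strand. Raw gene counts, whole and unnormalized, were what the authors deposited. Tools named per the submitters' processing notes are fastp, HISAT2, HTSeq and Bowtie2. Build and annotation: not given in the sources used here.

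Column names were matched to sample titles. Curcumol (n = 3) was compared with no treatment (n = 2) over all 14508 genes that passed filterByExpr (minimum count 10), by edgeR 4.0.16 under R 4.3.3. TMM scaling and a quasi-likelihood model of group alone left 3 residual degrees of freedom, and two-sided p-values were adjusted by Benjamini-Hochberg (threshold 0.05). Each SE is the log2 fold change over the root of its F. Alternatives used DESeq2 1.42.0, limma 3.58.1 (voom), other scalings and filters, a replicate block and each library left out. Exon lengths and near copies (at least 90% identity over at least 50% of the longest coding transcript, BLAST+ 2.17.0) came from GENCODE M21, promoters from RefSeq GRCm38.p6, matched by symbol. Lengths are approximate, since the annotation that was counted is not known.

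The 36 genes and all gene lists were chosen with earlier results of these data known. All 36 are named, and of the other pathway genes the 5 with the smallest p. Depth of 39768705 to 43315822 counts per library leaves counting error small except near 1 CPM.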

Additional observations from a re-analysis of the deposited data

How the results depend on the processing

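Under 13 alternatives, 25 of the 36 genes kept their sign and the other 11 changed it 20 times, which left every gene from aldolase to lactate dehydrogenase negative. Genes past the threshold over the whole table numbered 30 as reported, 30 with RLE factors, 11 with total counts, 2397 in DESeq2, 1661 in limma-voom, 8 with library weights, 416 with no filter, 98 with a CPM of at least 1 in 2 samples and 0 to 3530 with single libraries left out (1 without curcumol replicate 1 and 0 without curcumol replicate 2). Of the 36, 10 passed in DESeq2, 7 in limma-voom, 1 (Aldoa) with no filter and 0 to 9 with single libraries left out. In the fits that kept both untreated libraries, 9 to 13 of the 36 were lower at unadjusted p under 0.05. Those higher were 1 to 3, with 1 under the CPM filter. The share of all tested genes at that level is not given for these fits, so these counts have no background. Of the other pathway genes 8 passed in DESeq2, beside 4.74% of all tested genes lower and 11.8% higher. In limma-voom 3 passed, beside 1.73% lower and 9.72% higher. With no filter 1 passed, and 0 passed with any curcumol library left out.

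The median of the 36 was -0.17 with total counts. That of the other pathway genes was 0.26 with total counts, 0.49 in limma-voom, 0.53 with library weights, 0.40 with no filter and -0.045 (without curcumol replicate 3; -0.033 without untreated replicate 2) to 0.68 (without untreated replicate 1). The libraries lay apart downward for 12 and upward for 5 of the 36 with total counts (9.31% and 36.6% of all tested genes). With single libraries left out these were 16 to 21 and 4 to 9: 20 and 9 without untreated replicate 1 (30.1% and 45.5% of all tested genes), 21 and 6 without untreated replicate 2 (29.5% and 47.2%) and 16 to 18 and 4 to 5 without a curcumol library (17.0% to 18.5% and 32.7% to 33.9%). Total counts turned Pdk1 to 0.031, G6pdx to 0.13 and Tkt to 0.053. With single libraries left out the log2 fold change ran from -0.15 to 0.39 for Hk1, -0.11 to 0.34 for Hk2, -0.17 to 0.26 for Hk3, -1.57 to 0.37 for Slc16a1, -0.29 to 0.022 for Pdk1, -0.50 to 0.039 for Pdhb, -0.25 to 0.12 for G6pdx, -0.042 to 0.19 for Pgls, -0.29 to 0.071 for Tkt, -0.59 to 0.019 for Taldo1 and -0.093 to 0.73 for Rpe. The cause was not tested.

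With the replicate number as a block, 45 genes passed, 0 of them among the 36, 1 of the 36 was higher at unadjusted p under 0.05, the median of the other pathway genes was 0.49, G6pdx turned to 0.096 and Pgls to -0.040. Deviations of same-numbered libraries from their group means correlated at 0.0412 (replicate 1) and -0.00325 (replicate 2). With 2 untreated libraries these deviations mirror each other, so the values cannot tell whether same-numbered samples were paired. Rpia was not tested under the CPM filter. Low counts limit Rpia, which had 0 and 1 count in the untreated libraries, though these held more counts in total than the curcumol libraries.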

Other observations

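Of 185 near copies of the 36 genes in GENCODE M21, 4 had a row of their own in the count table: Eno1b, Aldoart1, G6pd2, and Peli2, a gene with a transcript that matched Gapdh. Eno1b, an intronless copy of Eno1 with which it may share reads, stood at 47.0, 34.5 and 25.6 CPM in curcumol samples and at 69.6 and 65.2 CPM in untreated samples (log2 fold change -0.92 ± 0.28, adjusted p = 0.0997, edgeR), with the order of the libraries the same as for Eno1. Aldoart1 and G6pd2 had 0 to 9 counts in each library.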
